A study of Mus musculus with 6 samples.

Results

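The SLC25 genes encode the mitochondrial carriers, the largest family of transport proteins in the inner mitochondrial membrane. Of the genes measured on these arrays, 46 carried a symbol that starts with Slc25a and a number, out of 19933 genes with a probeset of their own. Members were chosen by symbol alone, and each was read from its probeset with the highest mean signal over all arrays. RNA came from NCU10K, a mouse neural crest cell (NCC) line that has been immortalized, and was taken 48 h after transfection with control siRNA (3 arrays) or with Nedd4 siRNA (3 arrays). The cells of both groups were grown in DMEM with foetal calf serum, and each array was made from 300 ng of total RNA of a separate biological replicate. Nedd4 encodes a ubiquitin ligase. The experiment asks how gene expression in an NCC line changes when Nedd4 is knocked down. The cells are a single immortalized line, the methods name 1 siRNA against Nedd4 beside a control of low GC content, and no rescue was measured on arrays. Effects of losing Nedd4 and other effects of that siRNA cannot be told apart here.

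A mitochondrial carrier moves a metabolite, nucleotide, cofactor or inorganic ion across the inner membrane, usually by exchanging it for another solute. The carriers thereby connect the enzymes of the matrix with those of the cytosol. ADP/ATP carriers export the ATP made by oxidative phosphorylation, aspartate/glutamate carriers and the oxoglutarate carrier form the malate-aspartate shuttle, and others bring in phosphate, iron, glutathione or acylcarnitines. All are encoded in the nucleus, and those of the inner membrane are inserted there by a dedicated import route. A few members of the family lie in other membranes. NCCs are a migratory embryonic population that gives rise to peripheral neurons and glia, melanocytes and facial mesenchyme.

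The knockdown was seen in every sample. Nedd4 was at 12.24, 12.35 and 12.34 on the log2 scale on the control siRNA arrays and at 10.45, 10.94 and 10.68 on the Nedd4 siRNA arrays. The knockdown was 3.07-fold, at −1.62 on the log2 scale (SE 0.12, adjusted p = 3.16e-06, limma). The median signal of an array was 6.28 to 6.35, its interquartile range was 3.06 to 3.33, and precision is limited by having 6 arrays. Of 13 measured markers of neural crest and early glia, 11 lay above the median signal of all probesets, Sox10, Erbb3, Ngfr, Foxd3 and Tfap2a among them, and Ednrb and Tfap2b were in the lowest 25%. In Nedd4 knockdown cells 5 of these 13 markers fell: Erbb3 (−1.14 as log2 fold change), Foxd3 (−0.54), Tfap2a (−0.51), Sox10 (−0.43) and Snai2 (−0.33). The 2 that rose were Sox9 (0.66) and Twist1 (0.31), and 6 did not pass, Ngfr (−0.15) among them. The mean of the list was 8.85 to 8.88 on the control arrays and 8.68 to 8.78 on the Nedd4 siRNA arrays. Of 11 smooth muscle and fibroblast markers 3 rose (Dcn, Pdgfrb and Des), 0 fell and 8 did not pass. Among the 8 were Col1a1 (0.00 as log2 fold change), Col1a2 (0.06), Tagln (−0.06) and Acta2 (0.22). The mean of this list was 6.91 to 7.01 on the control arrays and 7.09 to 7.17 on the Nedd4 siRNA arrays. Of 5 neuronal markers 1 rose and 0 fell, and of 5 macrophage markers Cd68 fell while the others were in the lower part of the signal range on all arrays. Among all genes 9.62% rose and 9.13% fell by the same test, and among those above the median signal 17.4% and 16.0%. The part of the marker shifts in the results given here was not tested.

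In Nedd4 knockdown cells 11 of the 46 SLC25 genes were lower, 1 was higher and 34 did not pass the test. The falls were those of Slc25a45, Slc25a30, Slc25a22, Slc25a12, Slc25a24, Slc25a35, Slc25a44, Slc25a46, Slc25a10, Slc25a38 and Slc25a15, and they ran from −1.03 to −0.29 as log2 fold change. The rise was that of Slc25a4, which encodes an ADP/ATP carrier, at 0.38. By the same test 9.13% of all genes were lower, 9.62% higher and 18.7% changed in either direction. Lower calls were thus more frequent among the carriers than among all genes and higher calls less frequent, and no test of that difference was run. The median log2 fold change was −0.11 over the 46 carriers and −0.02 over all genes. Because total RNA of whole cultures was measured, fewer cells that express a gene and less RNA of it per cell cannot be told apart.

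**Figure D1:**
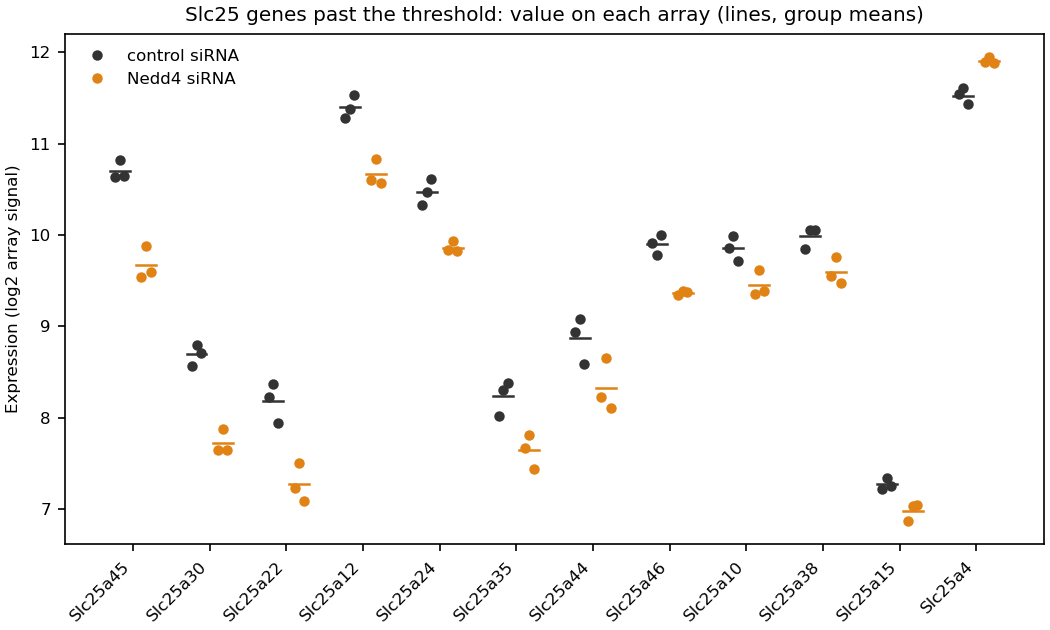
Expression (log2 array signal) of the 12 SLC25 genes past the threshold on each control siRNA (black) and Nedd4 siRNA (orange) array, with lines at the group means of 3 arrays. The groups do not overlap for 11 of the 12 genes, and Slc25a44 is the exception. The genes were selected by a test on these same arrays, so this count adds no support to the calls. Among all genes the Nedd4 siRNA arrays lay wholly below the control arrays for 15.6% and wholly above for 16.1%.

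Signal strength matters for these counts. Of the 46 members, 32 had a mean signal above the median of all probesets, 8 lay between the lowest 25% and the median, and 6 lay in the lowest 25%. All 12 changed members were among the 32. In the same upper part of the signal range 33.4% of genes changed, 16.0% of them lower and 17.4% higher as shares of all genes there. The corresponding counts for the carriers were 12, 11 and 1 of 32. The 14 members with weaker signals, such as Slc25a31, Slc25a21, Slc25a18 and Slc25a54, had log2 fold changes between −0.31 and 0.02, and at that signal a change of the mRNA may not be detectable.

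**Figure D2:**
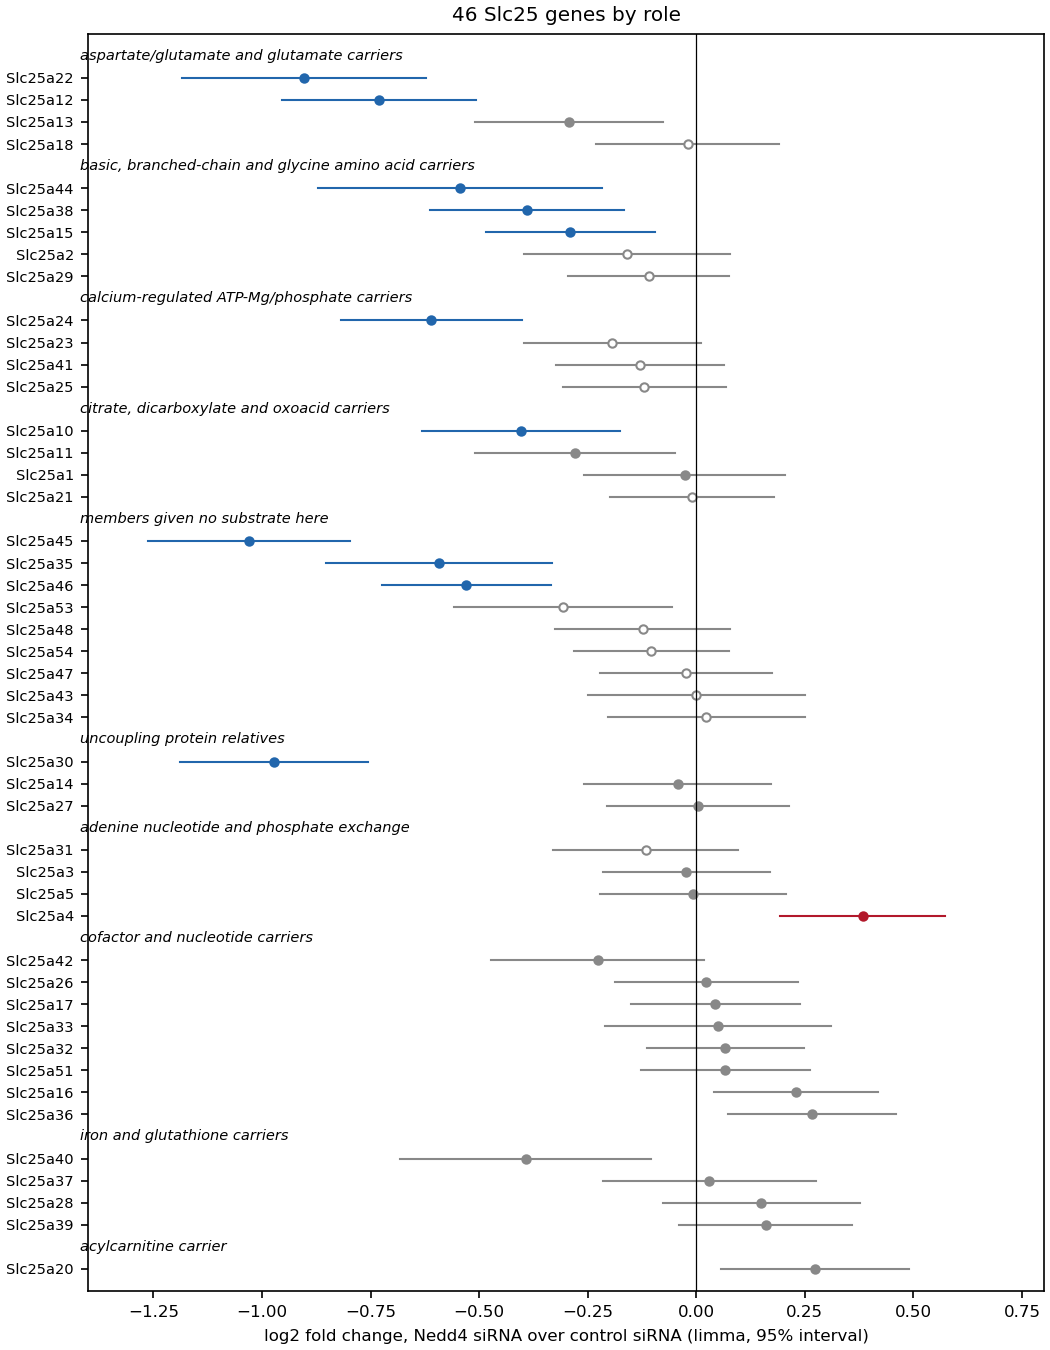
Log2 fold change of each of the 46 SLC25 genes (Nedd4 siRNA over control siRNA, limma estimate with 95% interval, 3 arrays per group), arranged by role. Blue genes were lower and red genes higher at an adjusted p under 0.05, grey genes did not pass, and open circles are genes at or below the median signal of all probesets; the estimates run from −1.03 for Slc25a45 to 0.38 for Slc25a4.

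The windows before the start sites of the carriers with the largest falls, of the aspartate/glutamate carrier gene and of the single gene that rose are shown here, so that the genes described below can be seen beside their upstream DNA. Each is the 250 bases before the start site in RefSeq (GRCm38.p6), read 5′ to 3′ on the gene's strand, and capitals mark CG dinucleotides.
Slc25a45 (chr19:5877572-5877821, plus strand): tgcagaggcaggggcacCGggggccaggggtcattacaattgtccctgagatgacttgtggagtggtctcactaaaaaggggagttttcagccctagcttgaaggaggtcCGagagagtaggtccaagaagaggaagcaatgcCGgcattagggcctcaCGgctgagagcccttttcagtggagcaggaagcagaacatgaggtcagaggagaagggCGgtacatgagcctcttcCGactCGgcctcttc
Slc25a30 (chr14:75787038-75787287, minus strand): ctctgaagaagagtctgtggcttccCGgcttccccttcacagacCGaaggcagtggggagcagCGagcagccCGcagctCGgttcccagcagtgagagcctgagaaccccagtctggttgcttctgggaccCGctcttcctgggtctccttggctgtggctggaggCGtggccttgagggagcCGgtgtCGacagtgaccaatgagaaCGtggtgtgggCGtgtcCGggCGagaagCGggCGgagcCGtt
Slc25a12 (chr2:71367756-71368005, minus strand): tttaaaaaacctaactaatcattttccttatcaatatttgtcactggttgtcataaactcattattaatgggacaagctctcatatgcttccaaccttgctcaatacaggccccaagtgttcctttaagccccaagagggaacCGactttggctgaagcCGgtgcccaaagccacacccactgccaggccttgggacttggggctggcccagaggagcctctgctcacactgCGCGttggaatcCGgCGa
Slc25a4 (chr8:46211063-46211312, minus strand): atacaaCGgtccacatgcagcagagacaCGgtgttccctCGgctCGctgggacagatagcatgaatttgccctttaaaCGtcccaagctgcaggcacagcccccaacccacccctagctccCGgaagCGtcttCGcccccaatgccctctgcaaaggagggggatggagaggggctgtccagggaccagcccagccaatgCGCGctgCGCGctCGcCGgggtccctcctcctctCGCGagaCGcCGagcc
These windows hold 7, 16, 6 and 18 CG dinucleotides in that order, against a median of 6 over all 32851 RefSeq windows of this length and of 11.5 over the 46 windows of the 36 carrier genes that matched. CG content thus ran from near the general median, for Slc25a45 and Slc25a12, to well above it, for Slc25a30 and Slc25a4.

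Motifs of factors known to act on nuclear genes of mitochondria were looked for on both strands of the windows, extended to 50 bases after the start site. None of the letters searched contains another of these motifs. The NRF1 motif core GCGCATGCG, the ERRA motif TCAAGGTCA and the ATF4 motif TGATGNAA were in 0 of the 36 carrier genes. They were in 1.95%, 0.466% and 4.51% of the 27025 genes with a window. The YY1 motif core AAGATGGCG was in 1 carrier gene (Slc25a3; 1.64% of all genes). The ETS motif CCGGAAGT, bound by GABPA, was in 1 carrier gene (Slc25a20; 4.31% of all genes), and the CREB motif TGACGTCA in 2 (Slc25a25 and Slc25a36; 2.03%). The E-box CACGTG was in 7 carrier genes, of which Slc25a15 alone was among the 8 lower genes with a window, and in 8.09% of all genes. A match is a description of the letters in the window, and its absence says nothing of the factor.

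Among carriers of aspartate and glutamate, Slc25a22 and Slc25a12 fell. Slc25a22, which encodes a carrier that brings glutamate into the matrix, was at 8.22, 8.37 and 7.94 on the control arrays and at 7.23, 7.50 and 7.09 on the Nedd4 siRNA arrays. All Nedd4 siRNA values lay below all control values (log2 fold change −0.90, SE 0.13, adjusted p = 0.000389, limma). Slc25a12 encodes aralar, the calcium-binding aspartate/glutamate carrier of the malate-aspartate shuttle in brain and muscle. It was at 11.28, 11.38 and 11.53 with control siRNA and at 10.60, 10.83 and 10.57 with Nedd4 siRNA, again without overlap (−0.73, SE 0.10, adjusted p = 0.00036). Slc25a13, for the related carrier citrin of liver, was at −0.29 (95% interval −0.51 to −0.08, adjusted p = 0.0668) and did not pass, although its groups did not overlap. On each array the log2 value of Slc25a12 minus that of Slc25a13 was 2.10, 2.17 and 2.32 with control siRNA and 1.61, 1.81 and 1.86 with Nedd4 siRNA. The shift of this difference, −0.44, had a two-sided exact permutation p of 0.1, the smallest that 3 arrays against 3 allow. Adjusted over the 4 pairs of related carriers compared in this way, that p was 0.133. The 4 pairs were chosen after values were seen, and the adjustment does not cover that choice. Slc25a18, for the other glutamate carrier, lay in the lowest 25% of signals (−0.02, adjusted p = 0.946).

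Of the enzymes that work with these carriers in the malate-aspartate shuttle, some fell and others did not pass. Got1 and Got2, the cytosolic and mitochondrial aspartate aminotransferases of the malate-aspartate shuttle, both fell. Got1 was at 10.94, 11.09 and 11.08 with control siRNA and at 9.92, 10.26 and 10.04 with Nedd4 siRNA (−0.96, SE 0.10, adjusted p = 4.98e-05, limma). Got2 was at 12.52, 12.70 and 12.77 against 12.04, 12.29 and 12.10 (−0.52, SE 0.10, adjusted p = 0.00333). The malate dehydrogenase genes of the same shuttle did not pass, with Mdh1 at 0.14 (95% interval −0.04 to 0.32) and Mdh2 at 0.15 (−0.05 to 0.35). Slc25a11, the oxoglutarate/malate carrier that completes the shuttle, was at −0.28 (95% interval −0.51 to −0.05, adjusted p = 0.105) and did not pass.

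Of 4 carriers of citrate, dicarboxylates and oxoacids, Slc25a10 fell. It encodes the dicarboxylate carrier, which exchanges malate or succinate for phosphate, and was at 9.86, 9.99 and 9.72 against 9.35, 9.62 and 9.39 (−0.40, SE 0.10, adjusted p = 0.0182, limma). The groups did not overlap. The citrate carrier gene Slc25a1, which supplies the cytosol with citrate for lipid synthesis, was at −0.03 (95% interval −0.26 to 0.20), and the oxodicarboxylate carrier gene Slc25a21 was among the dimmest members.

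Of 5 carriers of basic, branched-chain and other amino acids, 3 fell and 0 rose. Among all genes above the median signal 16.0% fell and 17.4% rose, and 5 carriers are too few to compare with those shares. Slc25a44, for a carrier of branched-chain amino acids, was at 8.94, 9.08 and 8.59 with control siRNA and at 8.23, 8.65 and 8.10 with Nedd4 siRNA (−0.54, SE 0.15, adjusted p = 0.0259, limma). Its groups overlapped, since Nedd4 siRNA replicate 2 lay above control siRNA replicate 3. Slc25a38, for the glycine carrier needed for haem synthesis, was at 9.85, 10.05 and 10.05 against 9.55, 9.76 and 9.47 (−0.39, SE 0.10, adjusted p = 0.0198). Slc25a15, for the ornithine/citrulline carrier of the urea cycle, was at 7.22, 7.34 and 7.25 against 6.87, 7.03 and 7.04 (−0.29, SE 0.09, adjusted p = 0.0449). These 3 genes and Slc25a10 had the highest adjusted p-values among the changed carriers. None of them passed by the ANOVA that the methods name, and each failed in some fits that leave out 1 array. Slc25a2 and Slc25a29 had signals below the median and did not pass.

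Of the 4 calcium-regulated carriers that exchange ATP-Mg for phosphate, Slc25a24 was the only member above the median signal. It was at 10.33, 10.47 and 10.61 with control siRNA and at 9.83, 9.93 and 9.82 with Nedd4 siRNA, without overlap (−0.61, SE 0.10, adjusted p = 0.000765, limma). Slc25a23, Slc25a25 and Slc25a41 had log2 fold changes between −0.19 and −0.12 and did not pass. Slc25a54, which lies next to Slc25a24 in the genome, was in the lowest 25% of signals (−0.10, adjusted p = 0.533).

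Among the relatives of the uncoupling proteins, Slc25a30 fell and the other two did not pass. Slc25a30, first described as a carrier of kidney mitochondria, was at 8.57, 8.80 and 8.71 with control siRNA and at 7.64, 7.87 and 7.65 with Nedd4 siRNA. This is 1.96-fold lower (−0.97, SE 0.10, adjusted p = 3.66e-05, limma), and the groups did not overlap. Slc25a14, at −0.04 (95% interval −0.26 to 0.17), and Slc25a27, at 0.00 (−0.21 to 0.21), are both best known from brain.

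The largest fall of the family was that of Slc25a45, to which no substrate is given here. It was at 10.63, 10.82 and 10.65 with control siRNA and at 9.54, 9.88 and 9.59 with Nedd4 siRNA, or 2.04-fold lower (−1.03, SE 0.11, adjusted p = 4.10e-05, limma). Slc25a35 was at 8.02, 8.30 and 8.38 against 7.67, 7.81 and 7.44 (−0.59, SE 0.12, adjusted p = 0.00418). Slc25a46, which encodes an outer membrane protein that affects mitochondrial shape and is mutated in hereditary optic atrophy with neuropathy, was at 9.91, 9.78 and 10.00 against 9.34, 9.39 and 9.37 (−0.53, SE 0.09, adjusted p = 0.00127). None of these 3 genes had overlapping groups. The other 6 members of this set, of which none lay above the median signal, did not pass. Slc25a53 had the largest change of them (−0.31, adjusted p = 0.104).

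Of the 4 carriers of ADP/ATP and phosphate, Slc25a4 was higher and the other members did not pass. Slc25a4 encodes the ADP/ATP carrier isoform ANT1 of heart and muscle and was at 11.54, 11.61 and 11.43 with control siRNA and at 11.90, 11.95 and 11.88 with Nedd4 siRNA. Every Nedd4 siRNA array lay above every control array (0.38, SE 0.09, adjusted p = 0.00875, limma), a 1.30-fold rise. Slc25a5, for the isoform ANT2 of proliferating cells, was at 12.99, 13.07 and 12.75 against 12.92, 12.96 and 12.91, a change of −0.01 (95% interval −0.22 to 0.21, adjusted p = 0.983). Its other probesets gave −0.03 and 0.01. All 3 are annotated with the same transcripts, and whether other copies of the sequence contribute to their signals was not tested. The difference between Slc25a4 and Slc25a5 on the same array was −1.45, −1.46 and −1.32 with control siRNA and −1.02, −1.01 and −1.03 with Nedd4 siRNA. It shifted by 0.39 without overlap (two-sided exact permutation p = 0.1, the smallest possible here, adjusted p = 0.133 over 4 pairs). Slc25a3, the phosphate carrier gene, was at −0.02 (95% interval −0.22 to 0.17), and the testis isoform gene Slc25a31 was in the lowest 25% of signals.

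No carrier of cofactors and nucleotides passed the test, although all 8 lay above the median signal. Slc25a36, for a pyrimidine nucleotide carrier, came nearest, at 10.96, 10.85 and 10.75 against 11.10, 11.11 and 11.15 (0.27, 95% interval 0.07 to 0.46, adjusted p = 0.0628, limma), and its second probeset gave 0.12 (adjusted p = 0.507). Slc25a16 and Slc25a42, associated with coenzyme A, were at 0.23 (adjusted p = 0.105) and −0.23 (adjusted p = 0.242). The remaining 5 had log2 fold changes between 0.02 and 0.07: Slc25a33 (pyrimidine nucleotides), Slc25a32 (folate or FAD), Slc25a26 (S-adenosylmethionine), Slc25a51 (NAD) and the peroxisomal carrier gene Slc25a17.

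The 4 carriers of iron and glutathione did not pass either. Slc25a40, which like Slc25a39 is needed for glutathione in mitochondria, was at 8.39, 8.62 and 9.01 against 8.24, 8.25 and 8.35 (−0.39, 95% interval −0.68 to −0.10, adjusted p = 0.0674, limma). Its second, dimmer probeset did pass (−0.48, SE 0.13, adjusted p = 0.0233), so the probesets of Slc25a40 fell on opposite sides of the threshold with the same sign. Slc25a39 was at 0.16 (95% interval −0.04 to 0.36). The log2 value of Slc25a40 minus that of Slc25a39 was −2.45, −2.36 and −1.88 with control siRNA and −2.82, −2.92 and −2.61 with Nedd4 siRNA, which did not overlap (exact permutation p = 0.1, adjusted p = 0.133). That p is the smallest possible here, and the pair was chosen after values were seen. The iron importer genes Slc25a28 and Slc25a37, for the mitoferrins, were at 0.15 and 0.03, and the difference between them shifted by 0.12 (exact permutation p = 0.6).

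The acylcarnitine carrier gene Slc25a20 was at 8.11, 8.29 and 7.95 with control siRNA and at 8.44, 8.37 and 8.36 with Nedd4 siRNA. The groups did not overlap, but the change did not pass (0.27, 95% interval 0.06 to 0.49, adjusted p = 0.0918, limma). Carnitine palmitoyltransferases act before and after this carrier in the entry of fatty acids. Of the 3 measured genes of this kind, Cpt1a and Cpt2 rose. Cpt1a was at 9.40, 9.61 and 9.38 against 10.56, 10.52 and 10.47 (1.05, SE 0.09, adjusted p = 1.21e-05), and Cpt2 was at 8.94, 9.14 and 8.90 against 9.51, 9.53 and 9.31 (0.46, SE 0.10, adjusted p = 0.00693). Cpt1c, a relative of Cpt1a best known from brain, was at 0.03 (95% interval −0.23 to 0.28, adjusted p = 0.941) and did not pass. Crat, for carnitine acetyltransferase, did not pass either (−0.14, 95% interval −0.32 to 0.04).

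**Figure D3:**
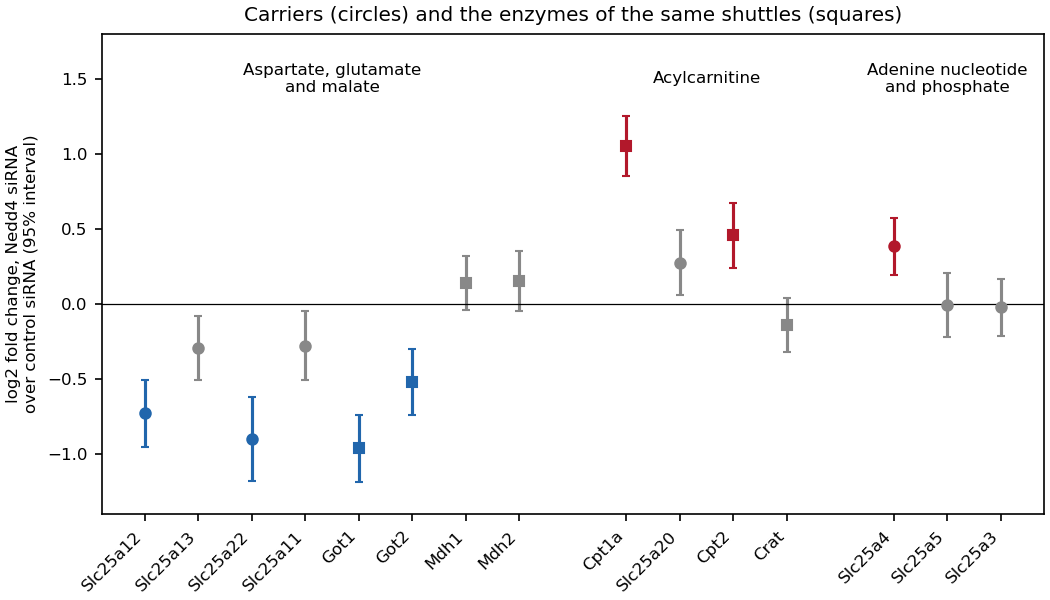
Log2 fold change (Nedd4 siRNA over control siRNA, limma estimate and 95% interval, 3 arrays per group) of carriers (circles) and of enzymes that act with them (squares). Blue, lower; red, higher; grey, not past an adjusted p of 0.05: the aspartate/glutamate carrier Slc25a12 (−0.73) and both aminotransferases were lower, Cpt1a (1.05) and Cpt2 (0.46) higher.

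The genes around the carriers were read from 6 further lists with 74 measured genes, of which 11 were higher, 14 lower and 49 did not pass. Signals above the median were found for 70 of the 74. Among all genes with such signals 33.4% changed, 17.4% upward and 16.0% downward. The counts for the 74 genes are therefore not read as results about mitochondrial genes, and the genes named below are single descriptions. Both measured carrier relatives of the outer membrane fell: Mtch2 (−0.63, SE 0.08, adjusted p = 0.000248, limma), a protein insertase, and Mtch1 (−0.68, SE 0.14, adjusted p = 0.00502). Ucp1 and Ucp3 had signals below the median and did not pass. Of 17 enzymes of the shuttles 5 were higher and 4 lower, among them Idh1 (0.54, adjusted p = 0.0027), the cytosolic isocitrate dehydrogenase, and citrate synthase, Cs (−0.45, adjusted p = 0.00278). Gpd2 (0.63, adjusted p = 0.0046) and Me1 (0.37, adjusted p = 0.0133) were also higher, and Gpd1 (−0.28, adjusted p = 0.0379) was lower.

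In the import route that inserts carriers, 2 of 15 genes were higher, 2 lower and 11 did not pass. All 15 lay above the median signal, as did most genes of the other lists in this paragraph. In that part of the range 17.4% of genes were higher and 16.0% lower, so these counts are not read as results about the lists. Agk, a subunit of the carrier translocase of the inner membrane, fell (−0.73, SE 0.10, adjusted p = 0.000297, limma), and the small chaperone gene Timm8a1 rose (0.74, SE 0.11, adjusted p = 0.000431). The receptor gene Tomm20 rose (0.31, adjusted p = 0.0365) and Tomm5 fell (−0.51, adjusted p = 0.0342), while the translocase gene Timm22 did not pass. Of 14 other mitochondrial transporters 2 were higher (Tspo, 0.57; Sfxn3, 0.38) and 2 lower (Sfxn5, −0.65; Sfxn4, −0.33), the Sfxn genes being sideroflexins, of which some carry serine. Of 12 genes of haem and iron-sulphur cluster synthesis 1 was higher (Alas1, 0.33) and 3 were lower, with Isca2, an iron-sulphur assembly factor, at −1.09 (SE 0.10, adjusted p = 1.98e-05), ferrochelatase (Fech) at −0.42 and the cysteine desulphurase gene Nfs1 at −0.37. Of 12 regulators of mitochondrial biogenesis, the coactivator gene Pprc1 was lower (−0.56, adjusted p = 0.00468) and Yy1 higher (0.34, adjusted p = 0.0132), and the other 10, among them Ppargc1a, Nrf1 and Tfam, did not pass.

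For the 12 changed members, the nearest measured protein-coding gene on either side in RefSeq was taken, 24 genes in all. Of these, 21 did not pass the test, 2 were higher and 1 lower, and 0 changed in the direction of the carrier beside them. The share of changed genes among all genes was 18.7%, so few such changes among 24 genes is not a result about the neighbours. Of the 22 neighbours of lower carriers 10 had a negative estimate, among them Hat1 beside Slc25a12 (−0.25, adjusted p = 0.0588). Dync1i2 rose next to Slc25a12 (0.40, adjusted p = 0.00528, limma), Pidd1 rose next to Slc25a22 (0.32, adjusted p = 0.0322), and Cfap97 fell next to Slc25a4 (−0.57, adjusted p = 0.000835).

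The calls differed in how firmly the arrays fixed them. Slc25a45, Slc25a30, Slc25a22, Slc25a12, Slc25a24, Slc25a35, Slc25a46 and Slc25a4 passed whichever single array was left out, while Slc25a44, Slc25a10, Slc25a38 and Slc25a15 did not. Without Nedd4 siRNA replicate 1, and likewise without replicate 3, 7 carriers were lower in place of 11. By the ANOVA that the methods name, 5 carriers were lower (Slc25a45, Slc25a30, Slc25a12, Slc25a24 and Slc25a46) and Slc25a4 was higher, where 9.05% of all genes changed, 4.26% lower and 4.79% higher. Of the members that did not pass, Slc25a11, Slc25a36 and Slc25a40 passed without control siRNA replicate 1, and Slc25a20 and Slc25a53 without control siRNA replicate 2. Over all 46 genes, the Nedd4 siRNA arrays lay wholly below the control arrays for 16 and wholly above for 5, against 15.6% and 16.1% of all genes. Separation was more frequent at stronger signals. Of the 10319 genes above the median signal, 2347 lay wholly below and 2833 wholly above, against 13 and 5 of the 32 members there. The 20 members above the median signal that did not pass had log2 fold changes between −0.39 and 0.27, and their 95% intervals together spanned −0.68 to 0.49.

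**Figure D4:**
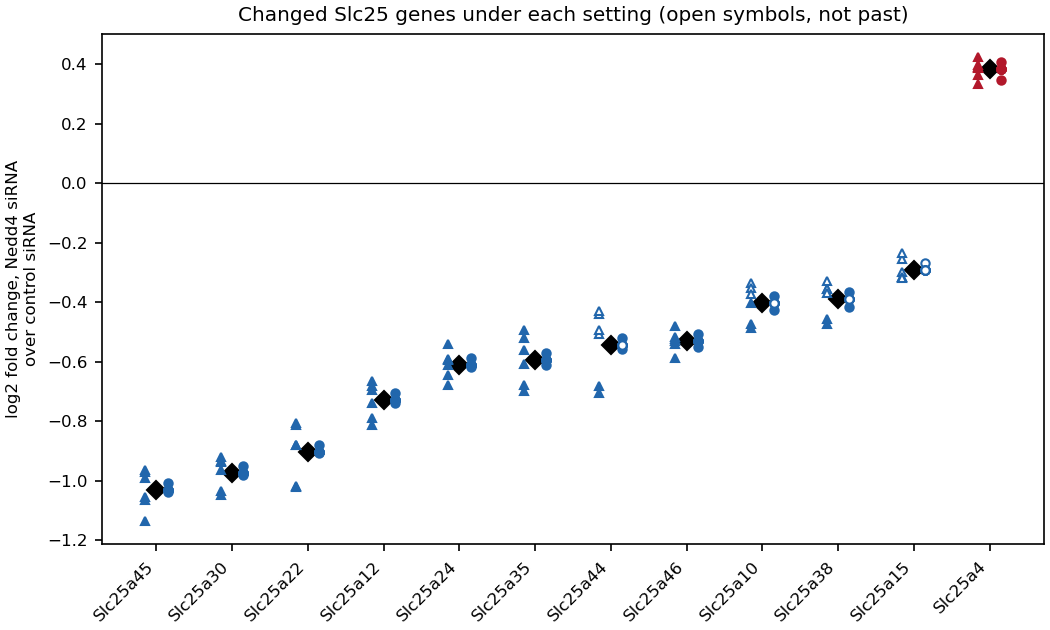
Log2 fold change (Nedd4 siRNA over control siRNA) of the 12 changed SLC25 genes in the reported fit (black diamonds), in 6 fits that each leave out 1 array (triangles) and under 9 other settings (circles). Filled symbols passed that setting's threshold and open ones did not; no estimate crossed 0, and open symbols are seen for Slc25a44, Slc25a10, Slc25a38 and Slc25a15, and those of Slc25a22 and Slc25a35 by the ANOVA lie under other circles.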

How the data were processed

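Total RNA of 6 cultures was hybridised to Affymetrix Mouse Gene 1.0 ST arrays, 1 array each. In Partek, named as version 6.5 by the submitters' notes, the authors corrected the scans for background by RMA and for GC content and averaged the probes of each probeset. They deposited log2 values for 28440 probesets, rounded to 2 decimals. The scans were not used here, so background correction could not be varied. Of the probesets, 21780 carry 1 gene symbol in the platform annotation, 1618 several and 5042 none, and genes were taken from the first kind. Among the named related genes Got2, Me1, Mtch2, Timm8a1, Tomm20 and Ppargc1a have 2 such probesets. Only the probeset with the highest mean signal is given for them.

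Groups were compared with limma 3.58.1 (R 4.3.3; lmFit and eBayes, no covariate) over all probesets, with Benjamini-Hochberg adjustment and a threshold of 0.05. The test was tested on simulated data. No further normalization was applied. Python 3.11.15 with pandas 2.3.3, NumPy 2.4.6 and Matplotlib 3.10.9 was used for counts, exact permutation tests, motif searches and figures.

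The gene lists were written with earlier results of these data known. Such results were also known when the members were set, but these were taken by symbol alone. All members are accounted for, and from each related list up to 4 genes past the threshold with the smallest p are named, or 2 where none passes. Got2, Cpt2, Gpd2, Me1, Gpd1, Cpt1c, Crat, Mdh1, Mdh2 and the other unchanged genes of these lists were chosen after values were seen. So were the 4 pairs of carriers, the motifs and the neighbouring genes. Alternatives were the methods' ANOVA, trended robust eBayes, quantile normalization, the replicate block, arrays centred on their medians, a filter that drops the dimmest 25% or 50% of probesets, the mean of a gene's probesets, a threshold of 0.01, and leaving out each array.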

Additional observations from a re-analysis of the deposited data

How the results depend on the processing

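No changed carrier changed sign under any alternative. The count of lower carriers, 11 in the reported fit, was 5 by the methods' ANOVA and 7 at a threshold of 0.01. It ran from 7 to 11 when single arrays were left out. It was 10 with trended robust eBayes and with median centring. Quantile normalization and dropping the dimmest 50% of probesets each gave 12, and the mean of a gene's probesets gave 13. Slc25a13 passed under these last 3 settings. The count of higher carriers, 1 in the reported fit, was 2 with trended robust eBayes, with median centring and without the dimmest 50% of probesets, where Slc25a36 joined Slc25a4, and ran from 1 to 2 over the leave-one-out fits. Among the 74 related genes, 5 were higher and 9 lower by the methods' ANOVA, against 11 and 14 in the reported fit. At a threshold of 0.01, 7 were higher and 10 lower, and leaving out single arrays gave 7 to 13 and 10 to 14. The other settings gave 11 or 12 higher and 12 to 15 lower. The log2 fold change of Nedd4 ran from −1.75 to −1.50 over the leave-one-out fits. Deviations of same-numbered arrays from their group means correlated at −0.01, 0.47 and −0.01 for replicates 1, 2 and 3. Those of differently numbered arrays correlated at −0.43 to 0.42. From 3 arrays per group it cannot be decided whether the numbers pair the samples. With the replicate block 13 carriers were lower and 1 higher, with 15 and 11 among the related genes.

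Some carriers with estimates near 0, none past the threshold, changed sign. With quantile normalization Slc25a18 was at 0.0108, Slc25a21 at 0.0056 and Slc25a47 at 0.0039. With median centring Slc25a18 was at 0.0033, Slc25a21 at 0.0133 and Slc25a5 at 0.0167. Over the leave-one-out fits Slc25a1 ran from −0.12 to 0.0683, Slc25a14 from −0.11 to 0.02, Slc25a17 from −0.0017 to 0.10, Slc25a18 from −0.085 to 0.04, Slc25a21 from −0.045 to 0.03 and Slc25a26 from −0.0267 to 0.10. In the same fits Slc25a27 ran from −0.0333 to 0.0667, Slc25a3 from −0.0717 to 0.0133, Slc25a33 from −0.0517 to 0.15, Slc25a34 from −0.06 to 0.11, Slc25a37 from −0.0617 to 0.12, Slc25a47 from −0.07 to 0.025 and Slc25a5 from −0.10 to 0.06. The cause was not tested. Members with signals near the lower end of the range limit what could be seen of them.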
